A study of Mus musculus with 16 samples.

Results

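The genes described here are the 4 mouse genes for platelet-derived growth factor (PDGF) chains, Pdgfa, Pdgfb, Pdgfc and Pdgfd, the receptor genes Pdgfra and Pdgfrb, and Pdgfrl, which encodes a receptor-like protein. They were taken by name from the array's probe annotation, and all 7 were found among the 17710 named genes, each with 1 probe. Expression was measured on 16 arrays from C57BL/6 mice, genotype labelled Normal, in 6 cell groups. The heart gave c-kit cells sorted by flow cytometry (n = 3), Sca1 cells sorted as Sca1+CD45-CD31- (n = 3), side population (SP) cells defined by Hoechst dye efflux (n = 2) and cardiomyocytes collected by centrifugation, which serve as the control (n = 2). The bone marrow gave sorted c-kit cells (n = 3) and mesenchymal stem cells (MSC) harvested after 5 passages in culture (n = 3). No sample received a treatment or carried an allele beyond the strain in the labels, and no age is given there. Matrigel and mTeSR are listed as growth conditions for every sample, so the labels do not show which freshly isolated cells were also cultured. No label ties the replicates to separate mice, so part of the scatter among arrays of a group may be technical. Every p-value here is relative to that scatter, pooled for each gene over all fitted groups and drawn towards a value estimated over all genes. Adjusted p-values also depend on the p-values of all other genes. An array outside the compared pair can therefore change a call.

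PDGF chains pair into dimers that activate receptor tyrosine kinases on the surface of mesenchymal cells. The alpha receptor binds the A, B and C chains, the beta receptor binds B and D, and the C and D chains are secreted in a latent form that proteases open. In the heart, the alpha receptor is a known marker of interstitial fibroblasts and related mesenchymal cells, the beta receptor of pericytes and other mural cells, and endothelial cells are a known source of the B chain, which recruits pericytes.

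Values are quantile-normalised log2 intensities, on which a difference of 1 is a 2-fold difference. Levels are compared between groups for 1 gene at a time, since probes of different genes differ in brightness. Spot intensities recovered from the deposited values ran from 1 to between 65436 and 65471 on each array, and 3.38% to 13.8% of spots per array carried a repeated fill value, which among these genes touched only Pdgfb in SP replicate 1. In these bulk samples, fewer cells of a type and less RNA per cell cannot be told apart.

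Marker genes set the labels in context. The cardiomyocyte arrays were high for 7 measured cardiomyocyte markers (mean log2 level 6.75 to 6.76), and they were also high for 10 endothelial markers (6.65 to 7.06) and 10 fibroblast markers (3.62 to 4.66). The MSC arrays were high for 9 measured macrophage and leukocyte markers (5.80 to 6.24), among them C1qa at a group mean of 7.88 and Ptprc, the gene for CD45, at 7.05. The 10 fibroblast markers averaged -0.47 to 0.61 on those MSC arrays and were split, with Col1a2 at 5.17, Postn at 4.59, Dcn at 3.81 and Col1a1 at 3.24, and the other 6 from -4.68 (Dpt) to -0.68 (Lum). Heart c-kit cells carried endothelial markers (5.23 to 6.03). The 3 Sca1 arrays, sorted to lack the endothelial antigen CD31 and the leukocyte antigen CD45, differed from each other in the endothelial markers (0.99, 2.42 and 5.68), and replicate 3 stood apart.

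All 7 PDGF genes differed among the 6 groups by limma's moderated F test with Benjamini-Hochberg adjustment over all genes, where 31.9% of all genes were called at an adjusted p under 0.05. Their limma adjusted p ran from 9.32e-06 for Pdgfa to 0.0254 for Pdgfra. Of the 105 combinations of a PDGF gene with a pair of groups, 50 were called, against 10.6% of all combinations of a gene with a pair. Pdgfrl was called in 10 of the 15 pairs, Pdgfa, Pdgfb, Pdgfd and Pdgfrb in 8 each, Pdgfc in 6 and Pdgfra in 2.

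**Figure D1:**
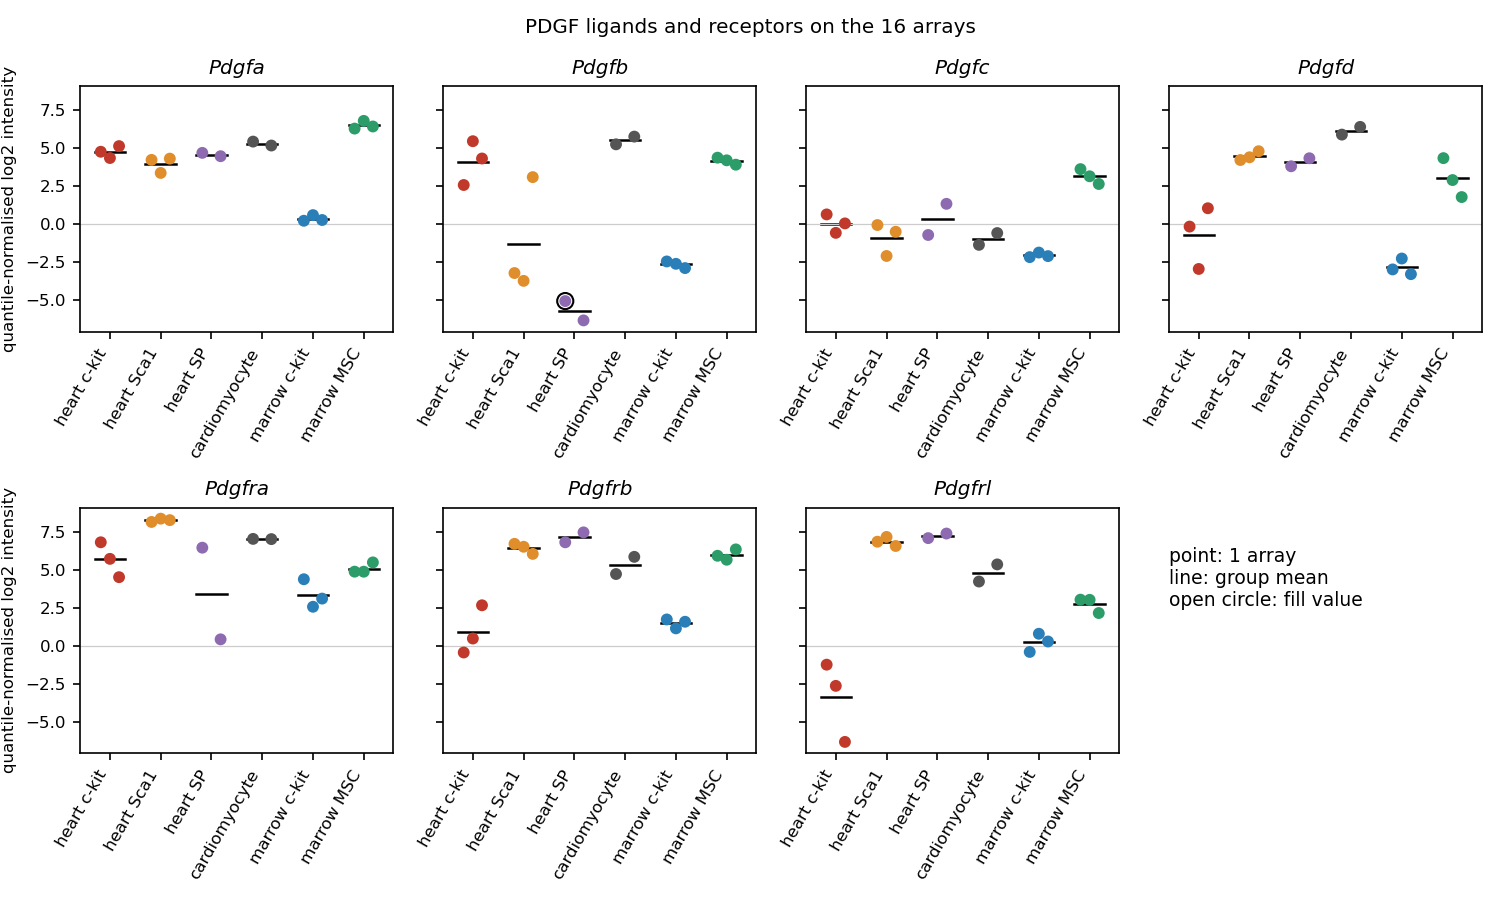
Quantile-normalised log2 intensity (vertical axis) of each PDGF gene in the 6 cell groups (horizontal axis). Points are single arrays, short lines are group means, and the open circle marks a fill value. Pdgfa is lowest on the 3 marrow c-kit arrays (0.23 to 0.60), Pdgfrl is highest in SP and Sca1 cells (6.57 to 7.39), and Pdgfra lies at 6.46 and 0.42 on the 2 SP arrays.

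Among the ligands, Pdgfa, which encodes the A chain, was lower in marrow c-kit cells than in each of the other 5 groups. The MSC arrays read 6.30, 6.81 and 6.44, the highest of any group. Cardiomyocytes read 5.44 and 5.18, heart c-kit cells 4.77, 4.36 and 5.15, SP cells 4.70 and 4.48, and Sca1 cells 4.24, 3.38 and 4.32. Marrow c-kit cells read 0.23, 0.60 and 0.28, and no array of another group was below 3.38. Marrow c-kit cells minus MSC gave -6.14 ± 0.47 (difference ± SE; limma adjusted p = 1.74e-06). Each heart group was higher than marrow c-kit cells, cardiomyocytes by 4.94 ± 0.53 (limma adjusted p = 2.66e-05), heart c-kit cells by 4.39 ± 0.47 (limma adjusted p = 2.86e-05), SP cells by 4.22 ± 0.53 (limma adjusted p = 6.43e-05) and Sca1 cells by 3.61 ± 0.47 (limma adjusted p = 8.60e-05). In the order of levels, no neighbouring groups above marrow c-kit cells differed by the test, with limma adjusted p from 0.196 to 0.884. Pdgfa was lower in Sca1 cells than in MSC (-2.53, limma adjusted p = 0.00313, and 0.0676 when array medians alone were aligned). The smaller differences of heart c-kit and SP cells from MSC (-1.75 and -1.92) passed the test with all arrays. The first call was lost without heart c-kit replicate 2 or any 1 of the MSC arrays (-1.55 to -1.86), and the second without any 1 of the SP or MSC arrays (-1.78 to -2.03). Both calls were also lost on the deposited values (-2.10 and -1.66) and with array medians alone aligned, where the first was -1.56 and the second shrank to -0.57 (limma adjusted p = 0.249 and 0.667).

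Pdgfc, which encodes the C chain, was also highest in MSC. The MSC arrays read 3.63, 3.16 and 2.65. SP cells read -0.71 and 1.34, heart c-kit cells 0.65, -0.57 and 0.05, and Sca1 cells -0.05, -2.09 and -0.49. Cardiomyocytes read -1.36 and -0.58, and marrow c-kit cells -2.16, -1.87 and -2.10. The MSC arrays did not overlap with those of any other group, while the 3 heart progenitor groups overlapped with each other. In spot intensity, Pdgfc lay between 567 and 1509 on the MSC arrays and between 11 and 166 on all others. The difference from MSC was -5.19 ± 0.68 in marrow c-kit cells (limma adjusted p = 0.000154), -4.02 ± 0.68 in Sca1 cells (limma adjusted p = 0.00157) and -3.10 ± 0.68 in heart c-kit cells (limma adjusted p = 0.00897). Cardiomyocytes were also below MSC (-4.11, limma adjusted p = 0.00463), a call lost without cardiomyocyte replicate 1 (-3.73, limma adjusted p = 0.0643). The SP group's difference from MSC (-2.83) was lost without SP replicate 1 (-1.80) or MSC replicate 1 (-2.59) or 2 (-2.82). Its difference from marrow c-kit cells (2.36) fell to 1.33 without SP replicate 2, and the call was also lost without any 1 marrow c-kit array, Sca1 replicate 3, or MSC replicate 1 or 2.

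The 250 bases before an annotated start of Pdgfa and of Pdgfc are shown because these ligands shared their highest group and correlated with each other over the 16 arrays (Pearson r = 0.77, a description over arrays that share their groups and normalisation). Sequences are RefSeq's (GRCm38.p6), where 4 of the 7 genes were matched in the table used here, and capitals mark matches to the motifs searched. Of the 2 Pdgfa windows in that table, the one shown holds more motif matches. It is chr5:138994945-138995194 on the reverse strand, and the Pdgfc window is chr3:81036166-81036415 on the forward strand.
Pdgfa: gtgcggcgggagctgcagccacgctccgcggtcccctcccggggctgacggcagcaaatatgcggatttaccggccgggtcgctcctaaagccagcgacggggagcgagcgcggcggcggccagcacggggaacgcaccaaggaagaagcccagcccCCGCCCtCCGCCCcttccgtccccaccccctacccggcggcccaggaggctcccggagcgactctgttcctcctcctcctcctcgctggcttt
Pdgfc: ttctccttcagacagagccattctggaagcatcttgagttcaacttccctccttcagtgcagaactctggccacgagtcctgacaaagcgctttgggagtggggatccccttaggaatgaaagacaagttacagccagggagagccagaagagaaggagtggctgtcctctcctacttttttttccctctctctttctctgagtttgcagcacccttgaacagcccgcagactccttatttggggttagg
On both strands, the GC box (GGGCGG) matched 2 times in this Pdgfa window, 1 time in the other Pdgfa window and 0 times in the Pdgfc window, and 32.7% of 32851 RefSeq mouse windows of the same length hold it. AP-1 (TGACTCA, in 4.46% of windows), the CCAAT box (CCAAT, 33.9%) and the TATA box (TATAAA, 12.4%) had no match in any of the 3. None of these motifs overlapped another here. A match is a description of the letters, and a missing match says only that these letters are not in this window.

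Pdgfb, which encodes the B chain, was high in cardiomyocytes, MSC and heart c-kit cells and low in SP and marrow c-kit cells. Cardiomyocytes read 5.26 and 5.77, MSC 4.38, 4.21 and 3.92, and heart c-kit cells 2.58, 5.47 and 4.33. Marrow c-kit cells read -2.45, -2.61 and -2.89, at spot intensities of 10 to 12. SP cells read -5.06 and -6.33, the first at the fill value and the second at an intensity of 1, so the size of any difference from SP cells depends on how such spots are scaled. The Sca1 arrays were split, with -3.21 and -3.73 in replicates 1 and 2 and 3.10 in replicate 3, which overlapped with heart c-kit cells. Pdgfb was higher than in marrow c-kit cells by 8.16 ± 1.51 in cardiomyocytes (limma adjusted p = 0.00240) and by 6.77 ± 1.35 in heart c-kit cells (limma adjusted p = 0.00440), and marrow c-kit cells minus MSC gave -6.82 ± 1.35 (limma adjusted p = 0.00423). SP cells were lower than MSC (-9.87, limma adjusted p = 0.000649). They were also lower than cardiomyocytes and heart c-kit cells, both calls lost when arrays were weighted by group (limma adjusted p = 0.0802 and 0.0708). The difference of heart c-kit from Sca1 cells (5.41, limma adjusted p = 0.0197) was lost without heart c-kit replicate 2 (4.74), Sca1 replicate 1 (4.44) or Sca1 replicate 2 (4.18), and rose to 7.60 without Sca1 replicate 3. The difference of Sca1 cells from MSC (-5.45) was lost without Sca1 replicate 1 (-4.48) or 2 (-4.23), or any 1 MSC array (-5.35 to -5.58).

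The mean level of endothelial markers was high with Pdgfb in the heart groups, and not in MSC. The 10 endothelial markers averaged 6.65 to 7.06 in cardiomyocytes and 5.23 to 6.03 in heart c-kit cells, the heart groups where Pdgfb was high on every array, and 1.08 to 1.34 in SP cells, where Pdgfb was at the bottom of the scale. The list was split in SP cells, with Pecam1 at 4.78 and Tek at 4.28 against Cdh5 at -2.43 and Vwf at -3.81. Tek had its highest group mean in Sca1 cells (6.25), and Vwf was low in heart c-kit cells (-0.57). Within the Sca1 group, replicate 3 held both the high Pdgfb value and the high endothelial level (5.68), and its macrophage and leukocyte marker level was also higher (2.55, against -1.38 and -1.12). On the MSC arrays the endothelial markers were low (-0.81 to -0.28) while Pdgfb was high and macrophage and leukocyte markers were high (5.80 to 6.24). The 7 measured markers of megakaryocytes and platelets, another known source of PDGF, averaged -1.67 to 1.26 over the 16 arrays, and the list was split. Its member Pf4, a platelet chemokine gene, had its lowest group mean in SP cells (-2.93), where Pdgfb was also lowest, and read 3.80 for heart c-kit cells, 3.17 for cardiomyocytes, 3.14 for MSC and 3.13 for marrow c-kit cells. Itga2b ran from -5.28 to -2.70 over the group means. The part of these cell types in the Pdgfb levels was not tested.

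**Figure D2:**
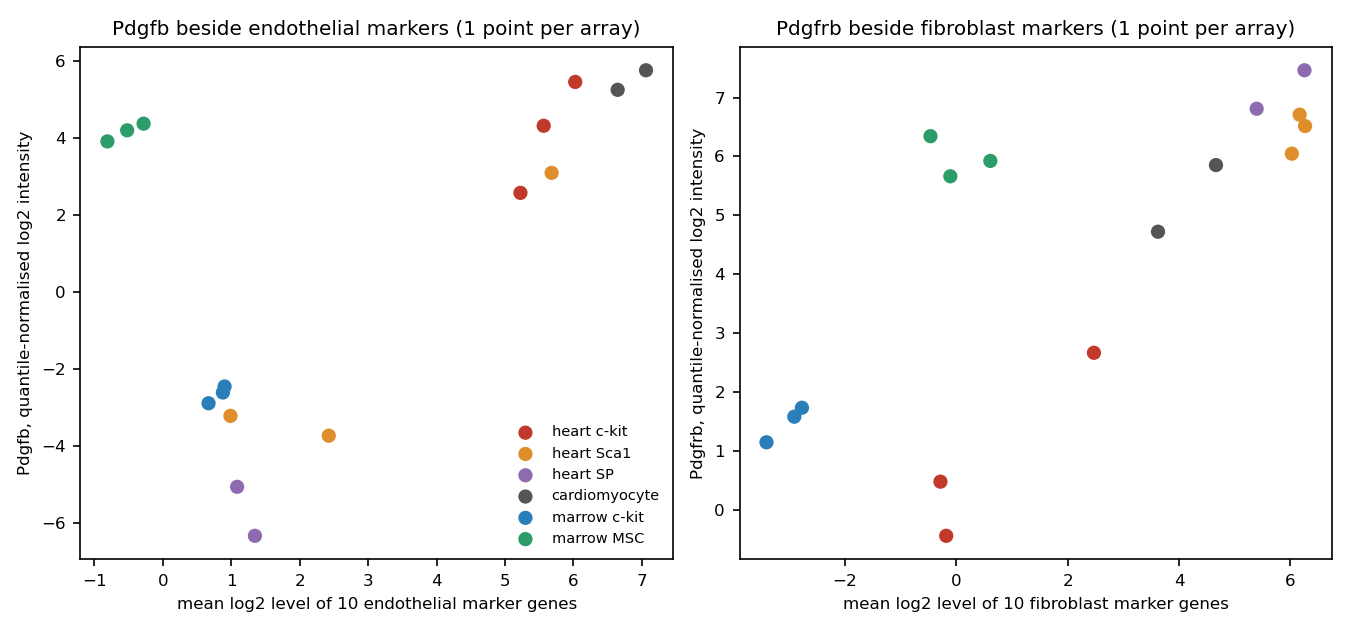
Left, Pdgfb against the mean level of 10 endothelial markers; right, Pdgfrb against the mean level of 10 fibroblast markers, all in quantile-normalised log2 units, with 1 point per array coloured by group. Sca1 replicate 3 (endothelial level 5.68, Pdgfb 3.10) lies with the heart c-kit arrays, and the 3 MSC arrays lie apart from the others in both panels.

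Pdgfd, which encodes the D chain, separated heart c-kit and marrow c-kit cells from the other groups. Cardiomyocytes read 5.90 and 6.41, Sca1 cells 4.23, 4.41 and 4.81, and SP cells 3.82 and 4.35. The MSC arrays read 4.35, 2.91 and 1.79, a spread of more than 2 log2 units that overlapped with SP and Sca1 cells. Heart c-kit cells read -0.15, -2.95 and 1.05 and overlapped with marrow c-kit cells at -2.98, -2.26 and -3.29. Spot intensities were 8 to 15 in marrow c-kit cells and 4 in heart c-kit replicate 2, so the sizes of differences from these groups are uncertain. Against marrow c-kit cells, Pdgfd was higher in Sca1 cells by 7.32 ± 0.88 (limma adjusted p = 4.27e-05), in SP cells by 6.92 ± 0.99 (limma adjusted p = 0.000195) and in cardiomyocytes by 9.0 ± 0.99 (limma adjusted p = 3.57e-05), and marrow c-kit cells minus MSC gave -5.86 ± 0.88 (limma adjusted p = 0.000532). Heart c-kit cells gave -5.16 ± 0.88 against Sca1 cells (limma adjusted p = 0.00206), -4.76 ± 0.99 against SP cells (limma adjusted p = 0.00633) and -6.84 ± 0.99 against cardiomyocytes (limma adjusted p = 0.00194). The last 2 calls were lost when only the compared groups were fitted (limma adjusted p = 0.203 and 0.136), and that against SP cells also with array weights (limma adjusted p = 0.124). The difference of heart c-kit cells from MSC (-3.70) was also called, and it was lost without MSC replicate 1 (-3.03, limma adjusted p = 0.0801). Neighbours from cardiomyocytes down to MSC did not differ by the test, nor did heart c-kit from marrow c-kit cells (2.16, 95% interval 0.26 to 4.06, limma adjusted p = 0.154).

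Of the receptors, Pdgfra, which encodes the alpha receptor, was highest in Sca1 cells. They read 8.15, 8.37 and 8.27, at spot intensities of 29952 to 36617, below the top of the scanner's range. Cardiomyocytes read 7.04 and 7.02, heart c-kit cells 6.81, 5.72 and 4.52, MSC 4.88, 4.88 and 5.49, and marrow c-kit cells 4.38, 2.57 and 3.10. No array of another group reached the Sca1 arrays. The 2 SP arrays disagreed, with 6.46 in replicate 1 and 0.42 in replicate 2, at spot intensities of 5550 and 33. On the same 2 SP arrays Pdgfrb read 6.81 and 7.46 and Pdgfrl 7.09 and 7.39, so replicate 2 was not low for the other receptor genes. Sca1 cells exceeded marrow c-kit cells by 4.91 ± 1.13 (limma adjusted p = 0.00713). They also exceeded SP cells by 4.82 ± 1.26 (limma adjusted p = 0.0365), which fell to 1.81 without SP replicate 2 (limma adjusted p = 0.245) and was 7.84 without SP replicate 1. That call was further lost without any 1 Sca1 array (4.77 to 4.88), without marrow c-kit replicate 3 and without any 1 MSC array (4.82 in each case). No neighbouring groups in the order differed by the test (limma adjusted p from 0.396 to 0.974), and the F test of Pdgfra (limma adjusted p = 0.0254) was lost without any 1 Sca1 array (0.0598 to 0.0641) or marrow c-kit replicate 2 or 3 (0.0609 and 0.0586). On the deposited values and with array medians alone aligned, both the F test (limma adjusted p = 0.0648 and 0.0777) and the difference of Sca1 from SP cells (limma adjusted p = 0.0726 and 0.119) lost their call.

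A window of 250 bases before an annotated Pdgfra start, chr5:75152001-75152250 on the forward strand (RefSeq, GRCm38.p6), is shown as the upstream sequence of the receptor gene whose level was highest in Sca1 cells. None of the 4 motifs above matched in it, on either strand, so it holds no capitals.
Pdgfra: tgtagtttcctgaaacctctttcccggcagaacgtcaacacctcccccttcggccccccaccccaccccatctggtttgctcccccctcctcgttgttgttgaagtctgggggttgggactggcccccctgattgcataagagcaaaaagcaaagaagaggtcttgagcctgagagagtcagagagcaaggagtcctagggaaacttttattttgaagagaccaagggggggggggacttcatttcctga

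Pdgfrb, which encodes the beta receptor, was high in SP cells, Sca1 cells, MSC and cardiomyocytes and low in c-kit cells of both organs. SP cells read 6.81 and 7.46, Sca1 cells 6.71, 6.52 and 6.05, and MSC 5.92, 5.66 and 6.34. Cardiomyocytes read 4.72 and 5.85, marrow c-kit cells 1.73, 1.14 and 1.58, and heart c-kit cells -0.45, 0.47 and 2.66. No c-kit array overlapped with any array of the other 4 groups. Heart c-kit cells gave -6.24 ± 0.78 against SP cells (limma adjusted p = 0.000191), -5.53 ± 0.70 against Sca1 cells (limma adjusted p = 0.000220) and -5.08 ± 0.70 against MSC (limma adjusted p = 0.000505). Against marrow c-kit cells, Pdgfrb was higher in SP cells by 5.65 ± 0.78 (limma adjusted p = 0.000150) and in Sca1 cells by 4.94 ± 0.70 (limma adjusted p = 0.000163), and marrow c-kit cells minus MSC gave -4.49 ± 0.70 (limma adjusted p = 0.000651). The difference between SP and heart c-kit cells was lost when those groups alone were fitted (limma adjusted p = 0.0862). Cardiomyocytes minus marrow c-kit cells gave 3.80, and heart c-kit cells minus cardiomyocytes -4.39. Both calls were lost without cardiomyocyte replicate 2 (3.24 and -3.82, limma adjusted p = 0.0686 and 0.0998), with array medians alone aligned and on the deposited values. The c-kit groups of heart and marrow did not differ by the test (-0.59, 95% interval -2.08 to 0.91).

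Pdgfrl, whose product resembles the ligand-binding part of the PDGF receptors and lacks a kinase domain, had its highest levels in SP and Sca1 cells and its lowest in heart c-kit cells. SP cells read 7.09 and 7.39 and Sca1 cells 6.85, 7.16 and 6.57. Cardiomyocytes read 4.23 and 5.36, MSC 3.03, 3.02 and 2.15, and marrow c-kit cells -0.41, 0.79 and 0.28. Heart c-kit cells read -1.25, -2.64 and -6.33, at spot intensities of 78, 5 and 1, so their distance below the other groups is uncertain in size. SP and Sca1 arrays overlapped with each other and with no other group, and the 3 heart c-kit arrays lay below all others. Heart c-kit cells gave -10.6 ± 1.08 against SP cells (limma adjusted p = 3.65e-05), -10.3 ± 0.97 against Sca1 cells (limma adjusted p = 2.29e-05), -8.20 ± 1.08 against cardiomyocytes (limma adjusted p = 0.00104) and -6.14 ± 0.97 against MSC (limma adjusted p = 0.00117). Against marrow c-kit cells, Pdgfrl was higher in SP cells by 7.02 ± 1.08 (limma adjusted p = 0.000344) and in Sca1 cells by 6.64 ± 0.97 (limma adjusted p = 0.000215). The differences of heart c-kit cells from SP cells and from cardiomyocytes were lost when the pair alone was fitted (limma adjusted p = 0.0567 and 0.136).

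Smaller Pdgfrl differences passed the test with all arrays and lost their call without single ones, mostly with little change in size. Heart c-kit cells were below marrow c-kit cells (-3.63, limma adjusted p = 0.0259), a call lost without marrow c-kit replicate 2 (-3.34) or 3 (-3.60) and with array medians alone aligned (-2.85). Without heart c-kit replicate 3 the difference shrank to -2.16 and was still called. Sca1 cells were 4.12 above MSC (limma adjusted p = 0.0135), lost without Sca1 replicate 2 (3.97) or MSC replicate 3 (3.83). SP cells were 4.50 above MSC (limma adjusted p = 0.0114), lost without SP replicate 2 (4.35, limma adjusted p = 0.0519). Cardiomyocytes were 4.57 above marrow c-kit cells (limma adjusted p = 0.0121), lost without cardiomyocyte replicate 2 (4.01, limma adjusted p = 0.110), on the deposited values (3.36, limma adjusted p = 0.111) and with array medians alone aligned (3.33, limma adjusted p = 0.116).

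The mean level of fibroblast markers lay high where Pdgfrb and Pdgfrl were highest. The 10 markers averaged 6.02 to 6.26 in Sca1 cells, 5.39 to 6.25 in SP cells, 3.62 to 4.66 in cardiomyocytes, -0.29 to 2.47 in heart c-kit cells and -3.41 to -2.77 in marrow c-kit cells. Col1a1 went the other way, with group means of 5.65 in heart c-kit cells, 4.59 in marrow c-kit cells, 4.29 in Sca1 cells and 0.70 in SP cells. The other listed genes had higher means in Sca1 and SP cells than in both c-kit groups, though Dcn was 5.34 in heart c-kit cells. Within heart c-kit cells, replicate 3 had both the highest fibroblast level (2.47) and the highest Pdgfrb value (2.66), while its Pdgfrl value was the lowest. Pdgfra, named above as a fibroblast marker, did not follow the list on every array. On SP replicate 2 the list was at 6.25 and Pdgfra at 0.42, and on heart c-kit replicate 1 at -0.18 and 6.81. Sca1 cells were high in both, with Pdgfra at 8.15 to 8.37. Marrow c-kit cells had the lowest group mean of Pdgfra (3.35). The MSC arrays had Pdgfrb at 5.66 to 6.34 with a fibroblast list mean of -0.47 to 0.61, a list whose members went both ways there (Col1a2 at 5.17, Dpt at -4.68). Of the pericyte and smooth muscle list, 9 of 11 genes were measured, and their mean level was highest in cardiomyocytes (5.76 to 5.81), where Pdgfrb was below its SP and Sca1 levels. It ran from 2.94 to 4.40 in Sca1 cells, 3.11 to 3.57 in SP cells and 3.19 to 3.28 in MSC. Heart c-kit cells, with the lowest mean Pdgfrb, overlapped with these groups (1.91 to 3.50), and marrow c-kit cells were lower (0.93 to 1.04). The list was split, with Tagln at -3.60 in Sca1 and -4.56 in SP cells against Rgs5 at 5.39 and 6.27. In MSC, Acta2 was at 8.31 and Kcnj8 at -0.04. The part of these cell types in the receptor levels was not tested.

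Read pair by pair, marrow c-kit cells stood lower for most of the genes. Members of the family called lower in them numbered 5 against SP cells (21.2% of all genes called in either direction), 5 against Sca1 cells (16.5%), 5 against cardiomyocytes (12.4%) and 5 against MSC (11%). Pdgfa, Pdgfd and Pdgfrb were among the 5 each time. Against heart c-kit cells, 3 genes were called (10.8% of all genes), with Pdgfa and Pdgfb lower and Pdgfrl higher in the marrow cells. Heart c-kit cells were called lower than MSC for 5 genes (12.1%), and differed from Sca1 cells in 4 (11.1%) and from SP cells in 4 (11.8%). In both of the latter pairs Pdgfb was higher and Pdgfd, Pdgfrb and Pdgfrl were lower in the c-kit cells. Against cardiomyocytes, the same 3 receptor and ligand genes, Pdgfd, Pdgfrb and Pdgfrl, were lower in heart c-kit cells (3.58% of all genes).

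The heart's other groups differed from each other in few of the genes. Sca1 and SP cells differed in 1 (Pdgfra, 6.83% of all genes) and SP cells and cardiomyocytes in 1 (Pdgfb, 5.17%). Sca1 cells and cardiomyocytes differed in 0 by limma (0% of all genes), with 2 PDGF genes and 2067 genes at an unadjusted p under 0.05. For Pdgfb, the gene with the smallest adjusted p of the 7 there, the difference was -6.80 (95% interval -10.0 to -3.55, limma adjusted p = 0.132). Against MSC, 4 genes were called in Sca1 cells (10.3%) and 4 in SP cells (17.7%). In each, Pdgfa, Pdgfb and Pdgfc were lower and Pdgfrl higher than in MSC. Cardiomyocytes differed from MSC in 1 gene (Pdgfc, 7.87%). Of all 50 called combinations, 27 were called under every alternative processing and with each array left out.

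**Figure D3:**
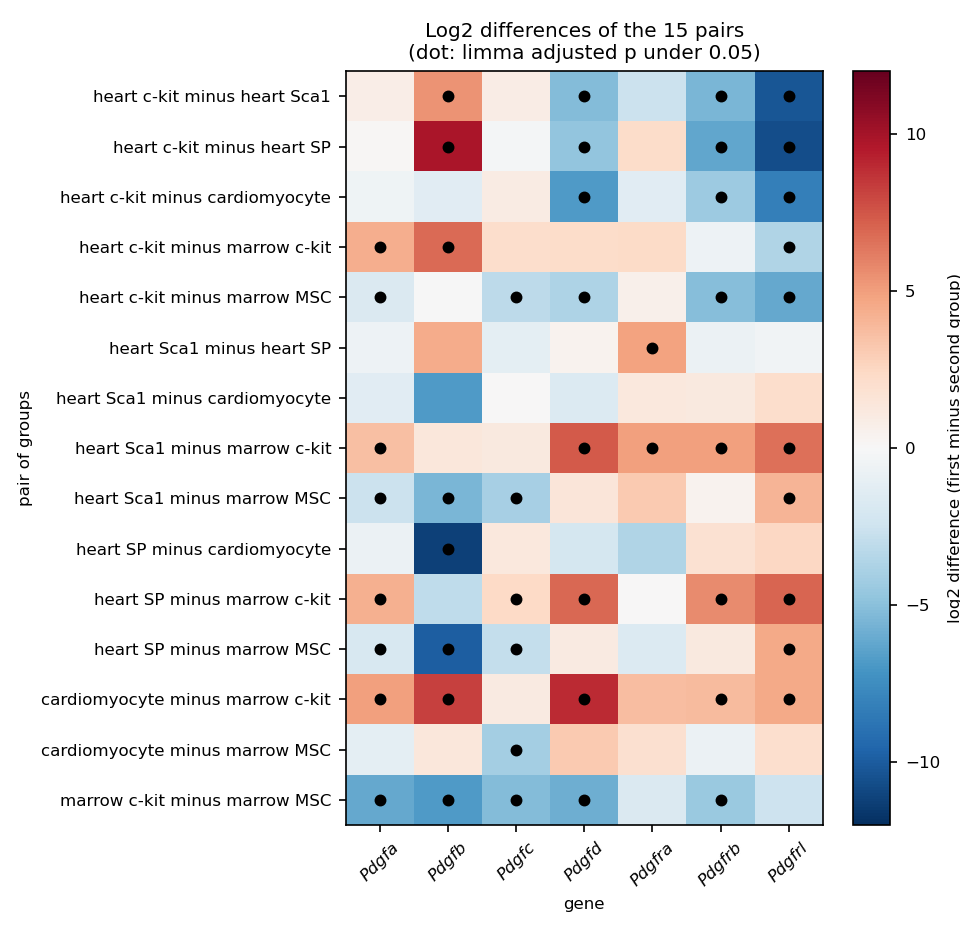
Log2 difference (colour, first minus second group) of each PDGF gene (columns) in the 15 pairs of groups (rows), with a dot where the limma adjusted p was under 0.05. The rows with 5 dots all involve marrow c-kit or heart c-kit cells. The rows of Sca1 and of SP cells against MSC have 4 dots each, and the row of Sca1 cells against cardiomyocytes has none.

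The comparison named in the study's design sets cardiac progenitor cells against cardiomyocytes. With the means of the 3 progenitor groups weighted equally, 1 PDGF gene was called, against 0.678% of all genes. That gene was Pdgfb, at -0.95 in the mean of the progenitor groups and 5.52 in cardiomyocytes (difference -6.47 ± 1.31, limma adjusted p = 0.0425). The progenitor groups were unlike, with means of 4.13 in heart c-kit cells, -1.28 in Sca1 cells and -5.70 in SP cells. Heart c-kit cells alone did not differ from cardiomyocytes by the test (-1.39, limma adjusted p = 0.737). Progenitor and cardiomyocyte arrays overlapped, since heart c-kit replicate 2 (5.47) lay between the cardiomyocyte arrays. The call was lost without either cardiomyocyte array (-6.21 and -6.72), heart c-kit replicate 3 (-6.50), Sca1 replicate 1 (-6.14) or 2 (-6.06), or any 1 of the 6 marrow arrays (-6.47). It was also lost on the deposited values (-5.05) and with array medians alone aligned (-4.33), where 2 and 0 of all genes were called. Pdgfd had a difference of -3.53 (limma adjusted p = 0.0821), with every progenitor array below both cardiomyocyte arrays, and did not pass. The other 5 genes had differences from -1.23 to 0.80, with limma adjusted p from 0.490 to 0.840. Each of these 5 changed sign under another scaling of the arrays, and aligning medians alone moved the median of all genes in this comparison from 0.02 to 0.79.

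The heart and marrow can also be compared as heart c-kit minus marrow c-kit cells, which share a sort marker. The other pair is heart Sca1 cells minus MSC, which are unlike preparations. The test of whether these 2 differences were equal was added after the values had been seen, and it called 4 of the 7 genes (7.43% of all genes). Pdgfa was higher in heart than in marrow c-kit cells (4.39) and lower in Sca1 cells than in MSC (-2.53), a difference between the differences of 6.92 ± 0.67 (limma adjusted p = 4.18e-05). Pdgfb was at 6.77 in the first pair and -5.45 in the second, a difference of 12.2 ± 1.91 (limma adjusted p = 0.00151). Pdgfc was at 2.09 (limma adjusted p = 0.0666, not called) and -4.02, a difference of 6.11 ± 0.95 (limma adjusted p = 0.00151). Pdgfrl went the other way, at -3.63 and 4.12, a difference of -7.75 ± 1.37 (limma adjusted p = 0.00321). For Pdgfd, Pdgfra and Pdgfrb the differences of 0.69, -0.85 and -1.03 were not called, with intervals of -1.99 to 3.38, -4.27 to 2.57 and -3.15 to 1.09. Endothelial markers in heart c-kit cells (5.23 to 6.03, against 0.67 to 0.90 in marrow c-kit cells) and macrophage and leukocyte markers in MSC moved with the same contrasts, and their part was not tested.

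**Figure D4:**
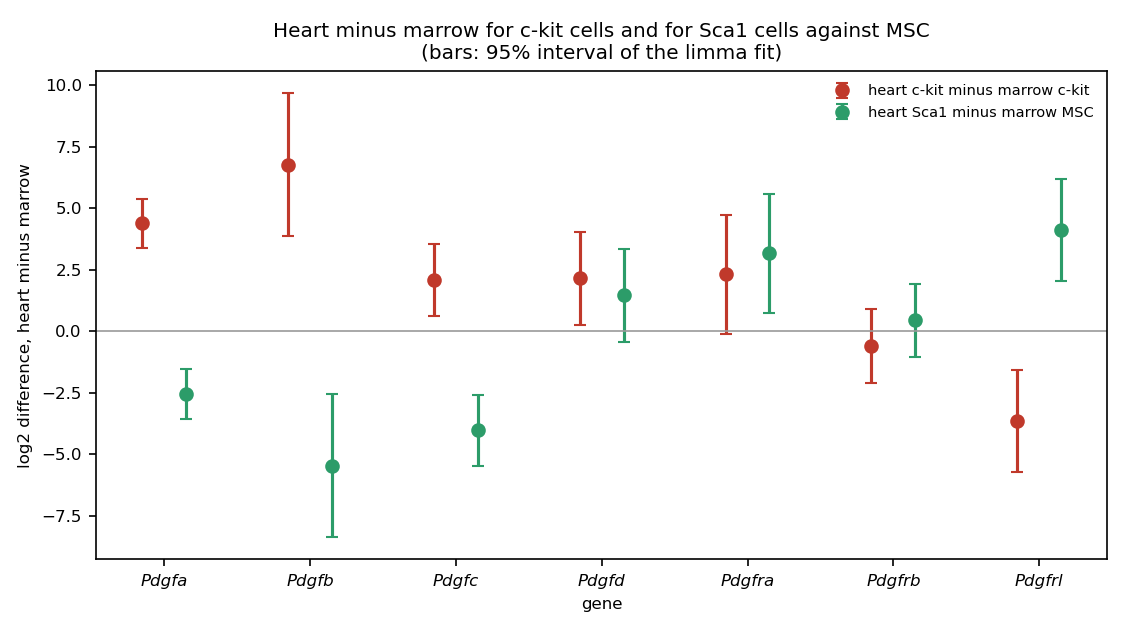
Heart minus marrow log2 difference of each PDGF gene, for c-kit cells (red) and for Sca1 cells against MSC (green), with 95% intervals from the limma fit. For Pdgfa, Pdgfb and Pdgfc the red point lies above 0 and the green point below 0, and for Pdgfrl the order is turned.

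The genes most like each PDGF gene over the 16 arrays were ranked by Pearson's r on the same values, a description of arrays that share their groups. Nearest to Pdgfa were Mfge8, a secreted glycoprotein (r = 0.94), the proteoglycan Sdc3, Evl, Dusp16 and the fibronectin gene Fn1 (0.93). Nearest to Pdgfb were the coreceptor gene Nrp2 (0.95), Parvb (0.93), Gngt2, Rasgrp3 and Ptpn14 (0.90). Nearest to Pdgfc were the lysosomal protease gene Ctsd (0.91), Cdh10, Kif26b and a pair of vacuolar proton pump genes, Atp6v1g1 and Atp6v0a1 (0.89). Nearest to Pdgfd were Fbln5, an elastic fibre gene (0.96), Rin2, Gsn, Arhgef17 and Apbb1 (0.94).

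For Pdgfra the likeness was weaker, with Pou6f1 at 0.89, Traf5, Tpst1, Denn2b and Afap1l2 (0.85). Nearest to Pdgfrb were Calhm5 (0.97), Tsc22d3, the glypican gene Gpc6, Cep55 and Dkk3 (0.96). Nearest to Pdgfrl were Eps15, an endocytic adaptor (0.97), Enpp5, Plxdc2, Crip1 and Fibin (0.93). Among the PDGF genes themselves, Pdgfd and Pdgfrb had the highest r (0.84), followed by Pdgfrb with Pdgfrl (0.82) and Pdgfa with Pdgfc (0.77). The lowest was that of Pdgfb with Pdgfrl (-0.40), and the receptor pair Pdgfra and Pdgfrb reached 0.21.

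Other genes of the pathway were read from a list of 45 names, of which 41 were measured and 23 were called by the F test, which called 31.9% of all genes. Of the genes listed for ligand activation, 5 of 6 were called. Pcsk6, a proprotein convertase, was highest in Sca1 cells at 8.20 ± 0.03 (SD, n = 3), with SP cells at 5.63 ± 0.28 (SD, n = 2) and MSC at 1.43 ± 1.12 (SD, n = 3). Plau, the urokinase gene, whose product is known to open the D chain, was highest in MSC at 8.17 ± 0.32 (SD, n = 3) and lowest in marrow c-kit cells at 3.75 ± 0.70 (SD, n = 3). Of coreceptors and ligand-binding proteins, 4 of 5 were called. Sparc, whose product binds PDGF, was at 8.0 to 8.65 in the means of 5 groups and at -3.20 ± 3.50 (SD, n = 3) in marrow c-kit cells. Nrp1, a coreceptor, was highest in cardiomyocytes at 7.31 ± 0.10 (SD, n = 2) and lowest in marrow c-kit cells at -0.50 ± 1.52 (SD, n = 3), and its second probe had the same highest and lowest groups.

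Of the adaptors and enzymes at the receptor, 7 of 17 were called. Stat3, a transcription factor that receptor kinases can activate, was highest in SP cells at 5.76 ± 0.29 (SD, n = 2) and low in marrow and heart c-kit cells at 1.03 ± 0.68 and 1.45 ± 0.89 (SD, n = 3 each). Slc9a3r1, a scaffold that binds the receptors, was at 6.69 in both marrow groups and at 1.09 ± 0.64 (SD, n = 2) in SP cells. Of negative regulators, 2 of 6 were called, a share near that of all genes (31.9%). Socs3, an inhibitor of cytokine signalling, was at 7.40 ± 0.18 (SD, n = 3) in Sca1 cells and 7.17 ± 0.09 (SD, n = 2) in cardiomyocytes, against 2.67 ± 0.55 (SD, n = 3) in marrow c-kit cells. Grb10, an adaptor that dampens receptor signalling, had its lowest mean in marrow c-kit cells (4.91 ± 0.85, SD, n = 3). In pairs, the pathway list had most calls between Sca1 and marrow c-kit cells, with 14 higher and 4 lower in Sca1 cells and a median difference of 0.88, against 16.5% of all genes called and a median of -0.27 for all genes.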

How the data were processed

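The authors deposited 1 table of log2 values of Cy5 spot intensities, centred per array, as read from the values; the scanner settings, background correction and fill rule: not given in the sources used here. Per the labels, amplified cDNA (WT-Ovation Pico) carried the Cy5 label. From the deposited log2 values, 26423 probes were quantile-normalised here, 20339 probes were named through GEO's platform annotation and RefSeq, and 1 probe per gene, that with the highest mean, was kept (17710 genes). Group means were compared with limma 3.58.1 in R 4.3.3 (lmFit, eBayes) on all 16 arrays, with Benjamini-Hochberg adjustment over all genes and a threshold of 0.05. The fit was tested on simulated data. No background flag was used. The number of arrays limits the precision. The groups were not equally noisy, with array weights per group from 0.39 for SP cells to 2.18 for MSC. The main fit gave all arrays the same weight.

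The members, gene lists and tests were chosen with earlier results of these data known. Genes named in the text are the 7 members, for each the 5 genes with the highest Pearson r (at the fill value on at most 2 arrays), and in each pathway role the called genes with the 2 smallest adjusted p of the F test, with further marker and sort genes named where a member is read beside them. Same-numbered replicates did not deviate together (median r 0.007, from -0.18 to 0.40), so numbers were not used as pairs. Alternatives were medians aligned only, deposited values, the mean over probes, filters on and raising of low values, trend and robust moderation, a replicate block, array weights, fitting only the compared groups, and each array left out. Leaving out Sca1 replicate 3 and SP replicate 2 together was added after seeing the data.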

Additional observations from a re-analysis of the deposited data

Results flagged for a closer look

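For 4 PDGF genes the difference between heart and marrow was not the same in c-kit cells as in Sca1 cells against MSC, by a limma contrast of the 2 differences added after the values had been seen. The difference between the differences was 6.92 for Pdgfa, 12.2 for Pdgfb, 6.11 for Pdgfc and -7.75 for Pdgfrl. These 4 kept their call under the alternatives run for this contrast and with each array left out. Fitting only the compared groups was not run for it. Sca1 cells and MSC are different preparations. Heart and marrow c-kit cells share a sort marker but differed in cell type markers. Endothelial levels were 5.23 to 6.03 and 0.67 to 0.90, and mean Ptprc was 4.01 and 7.51. Organ and cell type cannot be told apart in either difference. In that of Sca1 cells from MSC, the 5 passages of the MSC in culture and the sort of the Sca1 cells cannot be separated either.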

How the results depend on the processing

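The F test called 6 to 7 of the 7 genes under all alternatives. The pairs gave 43 to 57 calls against 50, or 38 with only the 2 compared groups fitted. Calls over all genes, 28048 over the pairs in the main fit, moved too. They were fewer with medians aligned, where the PDGF genes gave 43, and more with low values raised, where these gave 57. The spread of the PDGF counts is therefore not a measure of the stability of these genes alone. No called difference changed sign under any alternative. The single call of cardiac progenitors against cardiomyocytes was the least stable. With the replicate block the counts were 7 genes by the F test, 49 calls over pairs and 0 for that comparison. It was also 0 with medians aligned, on deposited values, with array weights and with only the 4 groups fitted. It was 2 with low values raised, and 0 to 2 with 1 array left out of a group of 3. Over all genes, that comparison called 120 in the main fit and 520 with low values raised. It called 0 with medians aligned, 2 on deposited values, 4 with array weights, 0 with only the 4 groups fitted and 38 with the replicate block. The loss of calls was thus not limited to Pdgfb. Without Sca1 replicate 3 and SP replicate 2 together, the counts were 7, 53 and 1. In that comparison, uncalled differences turned sign with medians aligned for Pdgfa (1.31), Pdgfra (0.90), Pdgfrb (1.74) and Pdgfrl (1.01). On the deposited values they turned for Pdgfa (0.58), Pdgfc (-0.19), Pdgfra (0.17), Pdgfrb (1.02) and Pdgfrl (0.28), and Pdgfrb ran from -1.03 to 0.10 with 1 array left out, turning without cardiomyocyte replicate 2. The uncalled test of unequal organ differences turned for Pdgfd with low values raised (-0.074) and without heart c-kit replicate 3 (-0.17 to 1.82 over arrays left out), and for Pdgfra with medians aligned (0.41). The cause of these changes was not tested. Differences that involve spots at an intensity near 1 (Pdgfb in SP cells, Pdgfrl in heart c-kit cells) have no firm size. Sizes are also uncertain at other low intensities, as for Pdgfd in marrow c-kit cells (8 to 15) and Pdgfb in Sca1 replicates 1 and 2 (8 and 7).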

Other observations

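The receptors most closely related to the PDGF receptors, the class III receptor tyrosine kinases, and their ligands were called by the F test for 5 of 7 genes of the pathway list, where 31.9% of all genes were called. Csf1, the ligand of the macrophage receptor Csf1r, was highest in MSC at 7.41 ± 0.18 (SD, n = 3) and lowest in marrow c-kit cells at 0.40 ± 0.45 (SD, n = 3), the same ends of the order as Pdgfa and Pdgfc. Kit, the receptor used in the c-kit sorts, was highest in marrow c-kit cells at 5.50 ± 0.32 (SD, n = 3), followed by heart c-kit cells at 3.67 ± 1.46 (SD, n = 3). It was lowest in MSC at -1.61 ± 0.19 (SD, n = 3).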
